A study of Ovis aries with 24 samples.

Results

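Interferon-stimulated genes are the antiviral genes that cells switch on when interferon signals that a virus is present. A set of 31 of them was followed in primary cultures of sheep (Ovis aries) pituitary, and 26 of the 31 had a row of that gene name among the 27054 features of the deposited count tables. No row carried the names OAS1, OAS2, USP18, IFITM3 or BST2, which are not analysed here. The cells came from ovariectomized ewes of the Western white faced breed. Every library came from cells that had been infected, 24 hours after dispersal, with an adenovirus whose GFP reporter was targeted to gonadotropes, the cells that secrete the gonadotropins. There was no group without virus among the libraries, so a response to the infection itself was not measured. The infected cells received, 3 days later, 10 nM estradiol (E2) or the ethanol vehicle for 6 hours. The 4 groups of 6 libraries were sorted E2, sorted vehicle, unsorted E2 and unsorted vehicle. Sorted cells were the labelled gonadotropes and unsorted cells were the mixed anterior pituitary cells, and the labels do not say whether these passed through the sorter. The labels do not say that the 6 replicates of a group were separate animals or cultures, so p-values measure the spread between these libraries.

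Interferons bind receptors at the cell surface whose kinases JAK1 and TYK2 activate transcription factors such as STAT2. STAT2 and IRF9 act in a complex that binds a shared response element in the promoters of interferon-stimulated genes. Several products of these genes are themselves parts of the circuit, such as the RNA sensors and STAT2, IRF7 and IRF9, and others block viral entry, translation or replication. The roles given here are known mainly from human and mouse cells.

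Levels are given in CPM, counts scaled to a common library total, on library sizes adjusted by the TMM method. The 12 libraries of replicates 1 to 3 held totals of 4.19 to 6.19 M counts, and the 12 of replicates 4 to 6 held 19.2 to 37 M. All 6 gonadotrope markers were higher in sorted cells, and their summed level was 2815 to 5429 CPM in sorted E2, 2654 to 5859 CPM in sorted vehicle, 336 to 1730 CPM in unsorted E2 and 343 to 1553 CPM in unsorted vehicle libraries. In the vehicle libraries 5 of 7 markers of the other hormone-secreting cells were also higher after the sort. These 7 summed to 66522 to 180844 CPM in sorted E2, 78187 to 204264 CPM in sorted vehicle, 48020 to 143364 CPM in unsorted E2 and 46243 to 120270 CPM in unsorted vehicle libraries, and their part in the sort differences was not tested. The genes PRL and GH made up most of the sums of these 7. They averaged 121050 and 37057 CPM in sorted vehicle libraries, where TSHB came next at 574 CPM. Fewer cells of a type and less RNA per cell cannot be told apart in these bulk libraries.

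Libraries of the same replicate number moved together in these genes across all 4 groups. Replicate 4 was high and replicate 6 was low. Of the 25 members with enough counts over the 24 libraries, replicate 4 exceeded replicate 6 by more than 2-fold in 19 in sorted E2, 19 in sorted vehicle, 10 in unsorted E2 and 14 in unsorted vehicle cells. Among all 15134 genes the same was true of 2.19%, 2.02%, 3.81% and 3.24% in those groups. The median member stood 1.33, 1.62, 0.87 and 1.05 log2 units higher in replicate 4 than in replicate 6, against -0.05, -0.05, 0.02 and 0 for the median of all genes. In all 4 groups at once 10 of the 25 members exceeded the 2-fold difference, as did 114 of all genes (0.753%). These shares describe single libraries and carry no test. Replicates 4 and 6 were often the extremes of these same members, which is not so for all genes. Part of the excess over all genes therefore follows from the choice of these libraries. The same limit holds for the replicate orders given below.

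The members differed widely in how far they followed this pattern. ISG15, a ubiquitin-like protein that is attached to other proteins or secreted, had 157.5 CPM in replicate 4 and 6.03 CPM in replicate 6 of sorted E2 cells, and 147.6 and 6.94 CPM in those of sorted vehicle cells. MX2, a dynamin-like GTPase that restricts viruses, had 169.5 and 5.85 CPM in the same libraries of sorted E2 cells and 211.7 and 4.36 CPM in those of sorted vehicle cells. IFI6, a small membrane protein of the antiviral response, had 399.5 and 34.7 CPM in replicates 4 and 6 of unsorted E2 cells and 338 and 30.9 CPM in those of unsorted vehicle cells. IRF1, a transcription factor, hardly differed between these libraries in sorted vehicle cells, with 26.6 CPM in replicate 4 and 26.0 CPM in replicate 6. Among roles, the antiviral effectors MX1, MX2, RSAD2, ISG20, IFI6, IFI44, IFI44L and XAF1 had median differences of 3.10, 3.26, 2.08 and 2.52 log2 units in sorted E2, sorted vehicle, unsorted E2 and unsorted vehicle cells. The 6 interferon receptor genes had medians of -0.12, 0.14, -0.06 and -0.03, and of these IFNLR1 alone exceeded the 2-fold difference, in unsorted E2 cells, with 2.41 CPM in replicate 4 and 1.11 CPM in replicate 6. A list of 28 other interferon-induced genes, outside the members, had medians of 0.57, 0.60, 0.30 and 0.37. Of these 28, 7, 8, 4 and 5 exceeded the 2-fold difference and none lay as far the other way. Markers of cell types also differed between replicates 4 and 6. In the same order of groups the medians were 0.58, 0.48, 1.00 and 0.97 for gonadotrope, 1.22, 0.59, 0.86 and 0.71 for lactotrope, somatotrope, thyrotrope and corticotrope, 0.30, 0.16, 0.81 and 1.03 for macrophage and leukocyte, and -1.50, -0.62, -0.54 and -0.39 for fibroblast and pericyte markers. The 7 markers of the other hormone-secreting cells summed to 180844 CPM in replicate 4 and 66522 CPM in replicate 6 of sorted E2 cells, and to 166820 and 78187 CPM in those of sorted vehicle cells. These sums are mostly PRL and GH. Of the 7 markers, 4, 2, 3 and 3 were more than 2-fold higher in replicate 4 in the 4 groups. TSHB lay the other way in each group, at -1.36, -1.46, -1.47 and -1.51 log2 units. The part of these cells in the member pattern was not tested.

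Replicate 5 usually lay between the other deep libraries. The order of replicate 4 over 5 over 6 held in 22, 23, 17 and 19 of 25 members in sorted E2, sorted vehicle, unsorted E2 and unsorted vehicle cells, and in 13.9%, 12.7%, 20.4% and 15.9% of all genes. Among the shallower libraries, replicate 3 was the lowest of replicates 1 to 3 in 13, 15, 19 and 24 members, against 35.1%, 33.1%, 34.0% and 35.6% of all genes. The spread between replicates was larger for the median member than for the median gene. The median SD of log2 CPM over the 6 replicates was 0.69, 0.68, 0.43 and 0.54 for members and 0.31, 0.29, 0.30 and 0.32 for all genes. Comparisons are given without a replicate term, and with the replicate number as a block where the block changes a call.

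**Figure D1:**
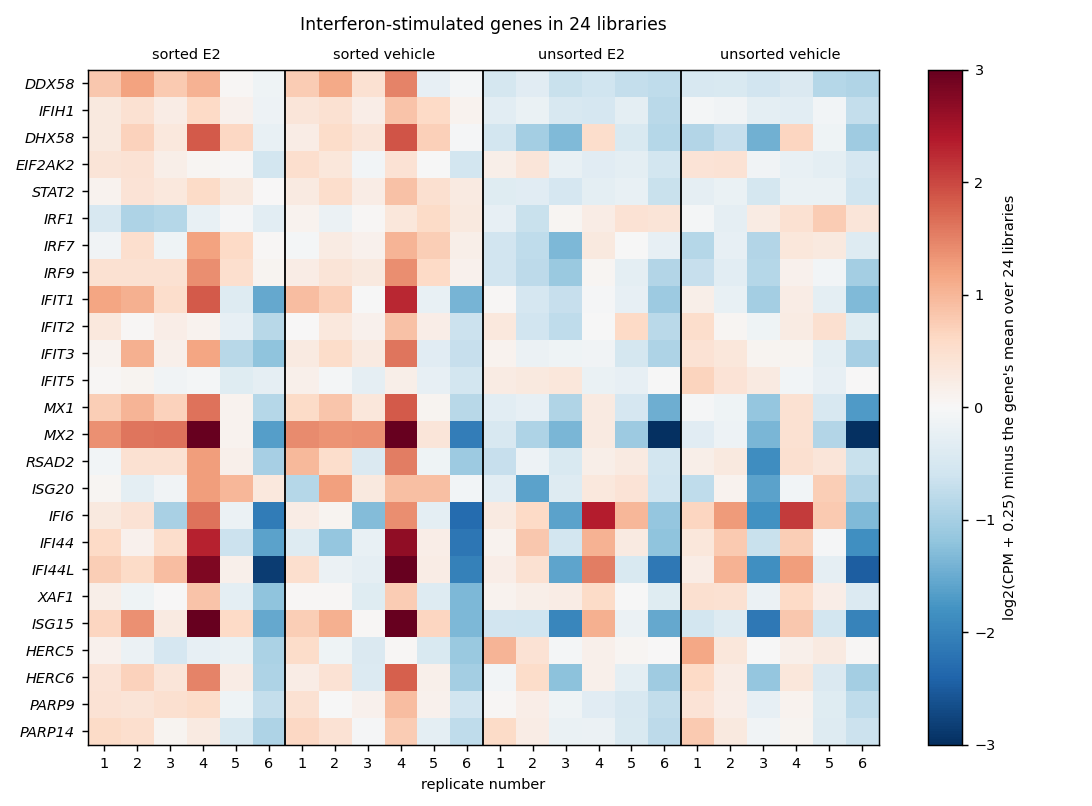
Heat map of log2(CPM + 0.25) minus each gene's mean over the 24 libraries, with genes in rows and libraries in columns by group and replicate number. Replicate 4 is the darkest red column of the sorted groups and replicate 6 the bluest, while DDX58, IFIH1, STAT2 and IRF9 are redder in sorted than in unsorted cells.

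The sort comparison in vehicle-treated cells asks which members were more or less abundant in the sorted cells than in the whole culture. Of the 4 RNA sensors 3 were higher in sorted cells, and so were 3 of the 4 transcription factors. Of the 24 members tested, 7 rose, none fell and 17 did not pass the test (edgeR's quasi-likelihood test, with Benjamini-Hochberg adjustment over the 14468 genes tested and a threshold of 0.05). Of all genes tested, 24.4% were higher and 25.8% lower. In this fit without the block the share of members that rose was near that of all genes, while no member fell. The median log2 fold change was 0.63 for members and 0.02 for all genes. At an unadjusted p under 0.05 there were 10 members, all higher, and DESeq2 called 9 higher and 0 lower. With the replicate block 11 of the 24 members were higher and 3 lower, against 32.5% and 31.1% of all genes.

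Among the sensors, DDX58 (ENSOARG00000014731), which encodes RIG-I and detects viral RNA ends, had 15.7, 28.7 and 52.7 CPM (lowest, median and highest) in sorted vehicle and 9.85, 12.8 and 13.7 CPM in unsorted vehicle libraries. Every sorted library lay above every unsorted one. DDX58 rose by 1.37 ± 0.27 on the log2 scale (SE, n = 6 libraries a group; edgeR adjusted p = 0.00082). IFIH1 (ENSOARG00000006142), which encodes the long double-stranded RNA sensor MDA5, had 65.3, 81.1 and 110 CPM in sorted and 37.1, 53.1 and 58.7 CPM in unsorted vehicle libraries, also with no overlap. It rose by 0.72 ± 0.15 (edgeR adjusted p = 0.001). DHX58 (ENSOARG00000018383), a relative of both that binds RNA but lacks their signalling domain, had 29.9, 42.6 and 114 CPM in sorted and 11.2, 17.8 and 48.0 CPM in unsorted vehicle libraries. The groups overlapped, because replicate 4 of the unsorted cells exceeded several sorted libraries. DHX58 was nevertheless higher in sorted cells in 6 of 6 same-numbered pairs, by 1.82-fold to 3.54-fold, and rose by 1.20 ± 0.38 (edgeR adjusted p = 0.019). EIF2AK2, the RNA-activated kinase that stops translation, had a log2 fold change of 0.18 ± 0.21 and did not pass the test (edgeR adjusted p = 0.51).

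Among the transcription factors, STAT2 (ENSOARG00000009154) had 126, 141 and 198 CPM in sorted and 71.6, 91.0 and 94.5 CPM in unsorted vehicle libraries. IRF9 (ENSOARG00000019201), its DNA-binding partner, had 51.5, 59.5 and 124 CPM in sorted and 23.0, 33.3 and 51.2 CPM in unsorted vehicle libraries. Neither pair of groups overlapped, although the lowest sorted and the highest unsorted IRF9 library nearly met. STAT2 rose by 0.81 ± 0.12 (edgeR adjusted p = 9.2e-05) and IRF9 by 1.01 ± 0.24 (edgeR adjusted p = 0.0029). IRF7, which drives interferon genes and their amplification, had 13.4, 16.3 and 28.8 CPM in sorted and 7.53, 11.2 and 17.7 CPM in unsorted vehicle libraries and rose by 0.65 ± 0.24 (edgeR adjusted p = 0.036). Its groups overlapped, and it was higher in 6 of 6 pairs. Without the block its call was lost, with edgeR adjusted p up to 0.097, when 1 of several libraries was left out. These were sorted vehicle replicates 4 and 5 and unsorted vehicle replicates 1, 2, 3 and 6. With the block IRF7 was called higher over all libraries and without those numbered 4. It was also called in replicates 1 to 3 and in replicates 4 to 6 alone. DDX58, IFIH1, STAT2 and IRF9 were the 4 of 24 members without overlap between the groups, all higher in sorted cells, as were 11.3% of all genes tested. IRF1 did not differ by more than its error (log2 fold change -0.06 ± 0.16, edgeR adjusted p = 0.78).

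The IFIT proteins bind foreign RNA through tetratricopeptide repeats, and none of the 4 members passed the test. IFIT1, which recognises RNA with an unmethylated cap, had 11.0, 38.9 and 141 CPM in sorted and 11.6, 24.7 and 34.3 CPM in unsorted vehicle libraries. Its sorted libraries spanned 12.9-fold and held both the highest and the lowest value. The log2 fold change of IFIT1 was 1.14 ± 0.53 (edgeR adjusted p = 0.088), against 0.80 ± 0.29 (adjusted p = 0.046) when the replicate number was blocked. IFIT2, IFIT3 and IFIT5 had log2 fold changes of 0.08, 0.51 and -0.29 and adjusted p of 0.83, 0.27 and 0.19.

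Among the other antiviral effectors, MX2 (ENSOARG00000010231) had the largest fold change of the 24 members tested. It had 4.36, 49.2 and 212 CPM in sorted and 1.99, 12.6 and 26.1 CPM in unsorted vehicle libraries. The groups overlapped in range, yet the sorted library was the higher of each same-numbered pair, by 2.19-fold to 8.11-fold. MX2 rose by 2.36 ± 0.80 (edgeR adjusted p = 0.028). The call was lost, with adjusted p up to 0.081, without sorted vehicle replicate 4 or without unsorted vehicle replicate 3 or 5, and the log2 fold change was 1.86 (adjusted p = 0.051) without all libraries numbered 4. Those fits did not block the replicate number. When it was blocked, MX2 was called higher over all libraries and also without those numbered 4. It was likewise called higher with the block in replicates 1 to 3 and in replicates 4 to 6 alone. MX1, a related GTPase, had 57.8, 142 and 371 CPM in sorted and 31.4, 83.5 and 141 CPM in unsorted vehicle libraries. It was higher in 6 of 6 pairs, by 1.49-fold to 2.86-fold. Its log2 fold change was 1.07 ± 0.44 (edgeR adjusted p = 0.061) without the block and 1.01 ± 0.13 (adjusted p = 6.1e-05) with it.

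IFI6 lay the other way. It had 15.7, 73.4 and 205 CPM in sorted and 22.2, 129 and 338 CPM in unsorted vehicle libraries and was lower in 5 of 6 pairs. Its log2 fold change was -0.76 ± 0.70 (edgeR adjusted p = 0.39), and -0.68 ± 0.21 (adjusted p = 0.023) with the replicate block. XAF1, a partner of apoptosis inhibitors that is induced by interferon, had a log2 fold change of -0.30 ± 0.30 (edgeR adjusted p = 0.42), and -0.39 ± 0.15 (adjusted p = 0.037) with the block. RSAD2 (viperin), IFI44 and IFI44L had log2 fold changes of 0.55 ± 0.50, 0.75 ± 0.82 and 1.32 ± 0.97 and were not called with or without the block. Their levels were low, with medians of 2.30, 1.43 and 2.59 CPM in sorted vehicle libraries. IFI44L had 30.7 CPM in sorted vehicle replicate 4 and at most 3.65 CPM in the other sorted vehicle libraries, and its log2 fold change was 0.10 without all libraries numbered 4.

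The ISG15 system comprises the modifier and the HERC ligases that attach it to proteins, HERC5 in human cells and HERC6 in mouse cells. ISG15 (ENSOARG00000007233) had 6.94, 29.3 and 148 CPM in sorted and 3.85, 12.2 and 31.9 CPM in unsorted vehicle libraries. The sorted library was the higher of each pair, by 1.60-fold to 4.82-fold, although the groups overlapped in range. The log2 fold change of ISG15 was 1.78 ± 0.71 (edgeR adjusted p = 0.054) without the block and 1.52 ± 0.20 (adjusted p = 0.00013) with it. HERC5 (ENSOARG00000000530) had 6.14, 11.2 and 19.9 CPM in sorted and 13.5, 15.8 and 30.9 CPM in unsorted vehicle libraries. It was the single member lower in all 6 pairs, at 0.442 to 0.918 of the unsorted level. Its log2 fold change was -0.55 ± 0.28 (edgeR adjusted p = 0.11), and -0.59 ± 0.13 (adjusted p = 0.0028) with the block. HERC6 had a log2 fold change of 0.60 ± 0.46 and was not called with or without the block.

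PARP9 and PARP14 belong to the ADP-ribosyltransferases, enzymes that modify proteins with ADP-ribose. PARP9 had a log2 fold change of 0.34 ± 0.25 (edgeR adjusted p = 0.27), and 0.32 ± 0.13 (adjusted p = 0.044) with the block. PARP14 had a log2 fold change of 0.15 ± 0.29 and was not called in either fit. ISG20, an RNA exonuclease, and CXCL10, a chemokine that attracts T cells, had too few counts for the filter of the group comparisons over all 6 replicates. ISG20 summed to 83 counts in sorted E2, 71 in sorted vehicle, 60 in unsorted E2 and 59 in unsorted vehicle libraries. In replicates 4 to 6 with the block, ISG20 was called higher in sorted than in unsorted E2 cells (log2 fold change 1.13 ± 0.30, edgeR adjusted p = 0.015) and not in vehicle cells (0.88 ± 0.39, adjusted p = 0.068). CXCL10 summed to 2, 7, 11 and 19 counts in the same groups, so a difference was not detectable at this depth.

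**Figure D2:**
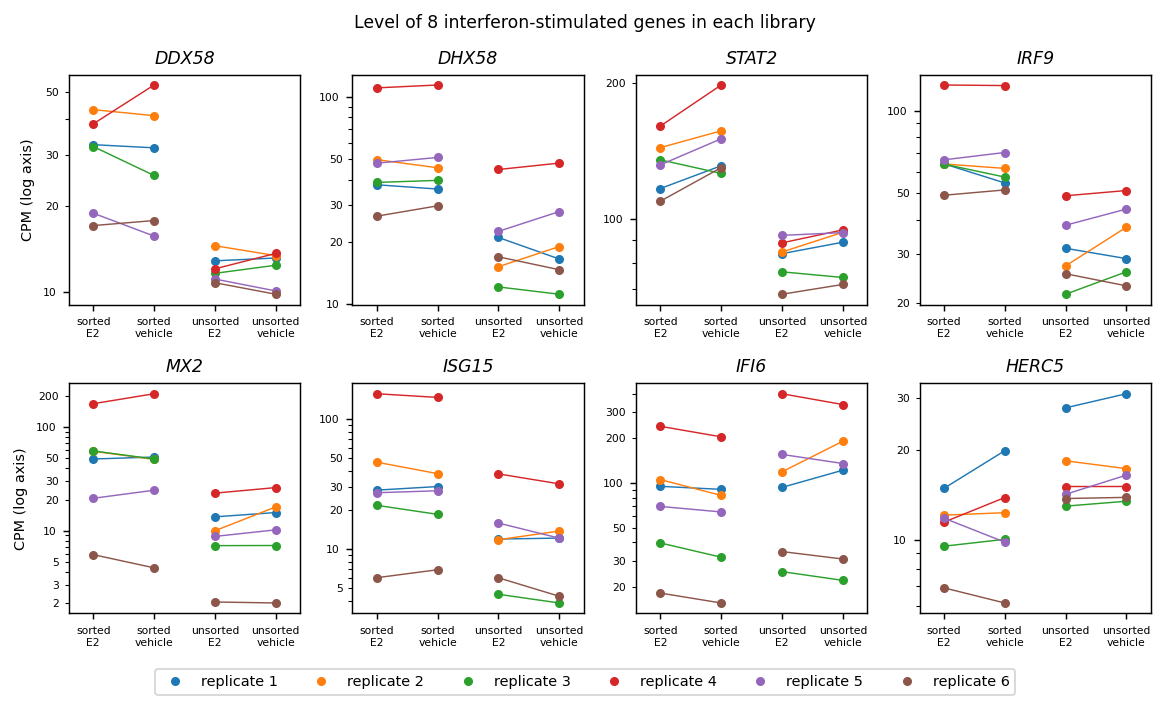
Level in CPM on a log axis of 8 members in each library, by group, with a line joining libraries of the same replicate number within sorted or unsorted cells. Replicate numbers keep much the same order across the groups. DDX58 and STAT2 do not overlap between sorted and unsorted cells of the same treatment, and neither does IRF9, though its groups nearly meet. HERC5 is lower in sorted cells for every replicate number.

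The depth sets are possible batches, although the labels name none. Fitted within each set with the replicate block, the sort difference in vehicle cells called 10 of 23 members higher and 2 lower in replicates 1 to 3, against 25.3% and 26.6% of all genes. In replicates 4 to 6 it called 12 of 25 higher and 2 lower, against 32.7% and 34% of all genes. The median log2 fold change was 0.15 over the 23 members in replicates 1 to 3 and 0.75 over the 25 in replicates 4 to 6. Replicate 4 weighed heavily on the deeper set for some members. Sorted IFIT1 stood at 4.12, 1.04 and 0.941 times unsorted in replicates 4, 5 and 6, and IFIT3 at 2.93, 0.953 and 1.25 times. Others were more even, such as STAT2 at 2.09, 1.61 and 1.81 times. The difference between the sets was not tested here. STAT2 stood at 0.69 and 0.90, DHX58 at 1.39 and 1.08, IRF9 at 0.92 and 1.07 and MX2 at 1.98 and 2.03 in the shallower and the deeper set. IFI44L differed most between the sets, at -0.08 and 1.54.

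The same sort comparison was made in E2-treated cells, with other libraries of the same replicate numbers. Here 9 of 24 members rose, 1 fell and 14 did not pass the test, against 25.8% of all 14545 genes higher and 26% lower. The median log2 fold change was 0.70 for members and 0.01 for all genes. All 7 members that rose in vehicle cells also rose in E2-treated cells, which makes 7 of 7 and 7 of 9 of the members called. This overlap is not an independent repeat. Deviations from group means correlated between same-numbered E2 and vehicle libraries, at r = 0.719 to 0.884 in sorted and 0.58 to 0.844 in unsorted cells. The overlap of calls was not counted over all genes. With the block 12 members were higher and 2 lower, against 33.9% and 31.8% of all genes.

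DDX58 had 17.1, 32.4 and 43.3 CPM in sorted E2 and 10.8, 11.9 and 14.5 CPM in unsorted E2 libraries, with no overlap, and rose by 1.37 ± 0.22 (edgeR adjusted p = 0.00018). IFIH1 rose by 0.74 ± 0.14, DHX58 by 1.28 ± 0.36, STAT2 by 0.74 ± 0.11, IRF7 by 0.83 ± 0.28 and IRF9 by 1.21 ± 0.23, with edgeR adjusted p from 8.4e-05 to 0.025. DDX58, IFIH1, STAT2 and IRF9 were again the 4 of 24 members without overlap, all higher in sorted cells, as were 11.2% of all genes tested. For IRF9 the groups nearly met, at 49.2 CPM in the lowest sorted E2 and 49.0 CPM in the highest unsorted E2 library. MX2 had 5.85, 54.0 and 170 CPM in sorted E2 and 2.04, 9.38 and 23.1 CPM in unsorted E2 libraries and was higher in 6 of 6 pairs, by 2.34-fold to 8.27-fold. It rose by 2.54 ± 0.72 (edgeR adjusted p = 0.011). MX1 rose by 1.22 ± 0.37 (edgeR adjusted p = 0.013).

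IFIT1 passed the test in E2-treated cells without the block, at 1.24 ± 0.44 (edgeR adjusted p = 0.031), and not with it, at 0.92 ± 0.38 (adjusted p = 0.075). It was higher in 4 of 6 sorted libraries than in their pairs and lower in replicates 5 and 6. HERC5 had 6.90, 11.6 and 14.9 CPM in sorted E2 and 13.0, 14.7 and 27.7 CPM in unsorted E2 libraries and fell by 0.57 ± 0.22 on the log2 scale (edgeR adjusted p = 0.044), with a lower sorted library in 6 of 6 pairs. IRF1 was not called without the block (-0.47 ± 0.20, edgeR adjusted p = 0.059) and was lower with it (-0.47 ± 0.11, adjusted p = 0.0027), again in 6 of 6 pairs. EIF2AK2, ISG15, HERC6 and PARP9 were called higher with the block alone, at log2 fold changes of 0.28, 1.40, 0.73 and 0.46 and adjusted p from 0.0063 to 0.018.

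With the block IRF7 and HERC5 were called over all libraries, in each depth set and without the libraries numbered 4. IFIT1 was called with the block in replicates 1 to 3 alone. In the fits without the block, several calls were lost when 1 library was left out. IRF7 was lost without sorted E2 replicate 4 or unsorted E2 replicate 1 or 2, with adjusted p up to 0.074. IFIT1 was lost without sorted E2 replicate 1, 2 or 4 or unsorted E2 replicate 2, 3, 5 or 6, with adjusted p up to 0.099. HERC5 was lost without sorted E2 replicate 2, 3, 4, 5 or 6 or unsorted E2 replicate 1 or 2, with adjusted p up to 0.11.

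**Figure D3:**
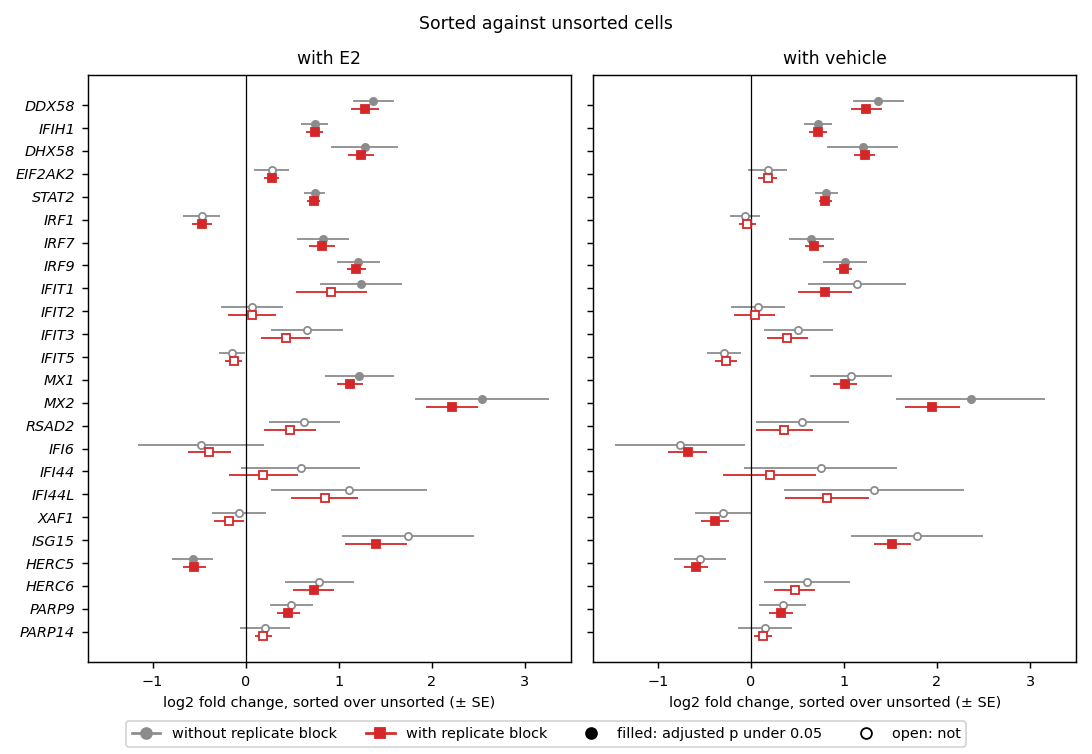
Log2 fold change of sorted over unsorted cells with its standard error for 24 members, in E2-treated cells at left and in vehicle-treated cells at right. Grey circles are fits without and red squares fits with the replicate block, and filled symbols have an adjusted p under 0.05. The sensors DDX58, IFIH1 and DHX58 and the factors STAT2, IRF7 and IRF9 are filled in both fits of both panels, and the error bars of MX1, MX2 and ISG15 shrink with the block.

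Macrophages and other leukocytes can respond strongly to interferon, and their markers were summed beside these results. The 13 markers measured summed to 17.3 to 23.8 CPM in sorted E2, 13.7 to 24.2 CPM in sorted vehicle, 19.0 to 45.2 CPM in unsorted E2 and 18.8 to 43.4 CPM in unsorted vehicle libraries. The medians were 18.9 and 18.7 CPM in sorted E2 and sorted vehicle cells and 29.3 and 33.0 CPM in unsorted E2 and unsorted vehicle cells, and no marker was at 0 throughout a group. In vehicle cells 6 of the 13 could be tested, of which 1 was higher and 2 lower. The macrophage receptor gene CSF1R averaged 0.121 CPM in sorted E2, 0.0832 CPM in sorted vehicle, 3.33 CPM in unsorted E2 and 3.19 CPM in unsorted vehicle libraries. CD3E, a chain of the T cell receptor complex, lay the other way, at 2.44 CPM in sorted E2, 2.73 CPM in sorted vehicle, 1.21 CPM in unsorted E2 and 1.10 CPM in unsorted vehicle libraries. CSF1R and CD14 were lower and CD3E higher in both sort comparisons, and in E2-treated cells ITGAM was also lower and CD79A higher. Among the unsorted vehicle libraries the summed markers were 40.5 CPM in replicate 4, 22.5 CPM in replicate 6 and 43.4 CPM in replicate 3. Fibroblast and pericyte markers summed to 945 to 2403 CPM in sorted E2, 942 to 1979 CPM in sorted vehicle, 6371 to 13193 CPM in unsorted E2 and 5625 to 13863 CPM in unsorted vehicle libraries. ACTA2 and TAGLN were the largest parts of these sums, at means of 2333 and 3061 CPM in unsorted vehicle libraries. Not every marker of the list was lower in sorted cells. DCN averaged 35.1 CPM in sorted and 18.8 CPM in unsorted vehicle libraries, and PDGFRA 3.38 and 3.25 CPM. The part of these cells in the member differences was not tested.

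The pathway around the members was described from lists of 94 further genes, of which 68 had a row. Interferon ligands were at or near 0. IFNG and IFNK had 0 counts in all 24 libraries, and IFNE summed to 2 counts in sorted E2, 1 in sorted vehicle, 9 in unsorted E2 and 7 in unsorted vehicle libraries. The other 7 ligand names had no row and are not analysed here. Of the 58 pathway genes tested in the vehicle sort comparison 6 were higher and 18 lower, against 24.4% of all genes higher and 25.8% lower, with a median log2 fold change of -0.01. In E2-treated cells 9 of 58 were higher and 19 lower, against 25.8% and 26% of all genes. The counts by role that follow are from vehicle cells and have the same background.

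Of the receptors 2 of 6 were lower in sorted vehicle cells and none was higher. IFNGR2, a chain of the receptor for interferon gamma, had 18.9, 26.4 and 37.6 CPM in sorted vehicle and 57.8, 84.0 and 118 CPM in unsorted vehicle libraries, with no overlap, and fell by 1.64 ± 0.19 on the log2 scale (edgeR adjusted p = 7.8e-06). IL10RB, a chain of the interferon lambda receptor, fell by 0.70 ± 0.13 (edgeR adjusted p = 0.00048). IFNAR1, a chain of the type I interferon receptor, had a log2 fold change of -0.29 ± 0.13 (edgeR adjusted p = 0.087), and -0.28 ± 0.10 (adjusted p = 0.035) with the block. The other chain, IFNAR2, had a log2 fold change of -0.01 ± 0.13.

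Among the signalling genes, JAK1 and STAT3 were higher with the block alone (log2 fold changes 0.23 and 0.38, adjusted p = 0.035 and 0.0028), and TYK2 and JAK2 were not called. Among sensing and adaptor genes 2 of 11 were higher and 6 lower. TLR3, the endosomal sensor of double-stranded RNA, averaged 33.6 CPM in sorted and 93.7 CPM in unsorted vehicle libraries and fell by 1.47 ± 0.21 (edgeR adjusted p = 6.2e-05), opposite in sign to the cytosolic sensors DDX58 and IFIH1. IRF5 averaged 0.350 CPM in sorted and 1.88 CPM in unsorted vehicle libraries and fell by 2.30 ± 0.33 (edgeR adjusted p = 5.2e-05).

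Of 9 negative regulators 2 were lower, among them TRIM38, which fell by 1.03 ± 0.16 (edgeR adjusted p = 9.8e-05). Of 28 other interferon-induced genes 4 were higher and 8 lower. ADAR, which edits double-stranded RNA, averaged 230 CPM in sorted and 149 CPM in unsorted vehicle libraries and rose by 0.65 ± 0.10 (edgeR adjusted p = 0.00014). CD274, the ligand of the inhibitory receptor PD-1 on T cells, fell by 1.20 ± 0.18 (edgeR adjusted p = 9.3e-05).

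The E2 comparison in sorted cells asks whether 6 hours of E2 changed these genes in the sorted cells. No member passed edgeR's test among 24 tested, against 1.37% of all 14334 genes, and the log2 fold changes of 14 were positive and of 10 negative. At an unadjusted p under 0.05 there was 1 member, IRF1, which DESeq2 called lower (adjusted p = 0.011). With the replicate block IRF1 was lower and IFI6 higher, 1 member each way, against 6.2% of all genes lower and 7.03% higher.

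IRF1 (ENSOARG00000015078) had 11.0, 15.9 and 20.6 CPM in sorted E2 and 18.8, 24.4 and 31.4 CPM in sorted vehicle libraries. The groups overlapped in range, but the E2 library was the lower of each of the 6 pairs, at 0.535 to 0.676 of its vehicle partner. The log2 fold change was -0.62 ± 0.16 (edgeR adjusted p = 0.099) without the block and -0.61 ± 0.07 (adjusted p = 2.7e-06) with it. It was -0.72 in replicates 1 to 3 and -0.58 in replicates 4 to 6, called in both sets, and -0.64 (adjusted p = 3.5e-06) with the block when all libraries numbered 4 were left out. IFI6 (ENSOARG00000003341) had 18.3, 82.6 and 241 CPM in sorted E2 and 15.7, 73.4 and 205 CPM in sorted vehicle libraries. E2 was the higher of each pair, by 1.05-fold to 1.28-fold, a difference much smaller than the 13.1-fold range of the vehicle libraries. Its log2 fold change was 0.26 ± 0.66 (edgeR adjusted p = 1.0) without the block and 0.24 ± 0.05 (adjusted p = 0.0015) with it.

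With the block, 22 of the 24 log2 fold changes in sorted cells were under 0.25 in size, the exceptions being IRF1 and IFIT2 (-0.37 ± 0.18, adjusted p = 0.22). The intervals of 2 standard errors around the log2 fold changes of all 24 members lay between -0.75 and 0.44. Each interval was thus within 2-fold either way, and 20 of them lay within 0.5 log2 units of 0. Single pairs of members with low counts moved further. IFI44 stood at 0.507 to 2.98 times its vehicle partner, and IFI44L at 0.31 to 2.44 times. DDX58 had a log2 fold change of 0.02 ± 0.08, MX2 of 0.00 ± 0.08, ISG15 of 0.08 ± 0.07 and IRF9 of 0.06 ± 0.05 with the block.

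In unsorted cells no member passed edgeR's test for E2 among 24 tested, against 0.245% of all 15083 genes, and 0 had an unadjusted p under 0.05 or a call by DESeq2. The log2 fold changes of 3 were positive and of 21 negative, with a median of -0.10. Signs under E2 were not counted over all genes in sorted or unsorted cells. The members moved together by replicate number, so their signs are not independent and the count carries no test. With the block IFIH1 was lower, 1 member against 2.37% of all genes lower and 2.86% higher. IFIH1 had 34.6, 45.9 and 52.9 CPM in unsorted E2 and 37.1, 53.1 and 58.7 CPM in unsorted vehicle libraries, and the E2 library was the lower of all 6 pairs. Its log2 fold change was -0.18 ± 0.14 (edgeR adjusted p = 1.0) without the block and -0.18 ± 0.05 (adjusted p = 0.034) with it, and -0.17 (adjusted p = 0.15) with the block when all libraries numbered 4 were left out. PARP14 was also lower in 6 of 6 pairs and was not called (-0.15 ± 0.05 with the block, adjusted p = 0.071). IRF1 had a log2 fold change of -0.21 ± 0.19 without and -0.20 ± 0.07 with the block (adjusted p = 1.0 and 0.091). The intervals of all 24 members with the block lay between -0.57 and 0.65.

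**Figure D4:**
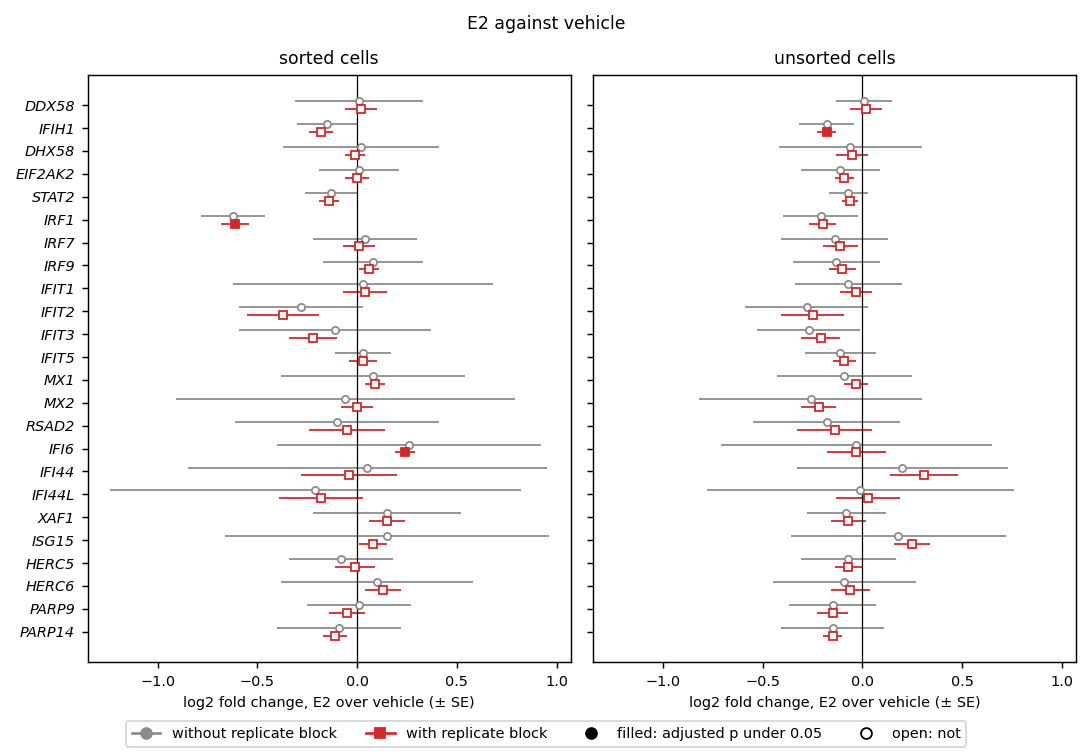
Log2 fold change of E2 over vehicle with its standard error for 24 members, in sorted cells at left and unsorted cells at right. Grey circles are fits without and red squares fits with the replicate block, and filled symbols have an adjusted p under 0.05. The filled symbols are IRF1 and IFI6 in sorted cells and IFIH1 in unsorted cells, all with the block, and most squares lie within 0.25 log2 units of 0.

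The E2 effect was also set side by side in the 2 depth sets, fitted with the block. In sorted cells 20 of 24 members had a positive log2 fold change in replicates 1 to 3 (median 0.15), whereas 4 were positive and 18 negative in replicates 4 to 6 (median -0.08). Of the 24, 15 were positive in the shallower and negative in the deeper set. In replicates 1 to 3 IFIT1, MX1 and HERC6 were called higher (log2 fold changes 0.39, 0.26 and 0.40) and IRF1 lower, against 2.93% of all genes higher and 1.31% lower. In replicates 4 to 6 IFIH1, STAT2, IRF1 and IFIT3 were called lower (-0.31, -0.22, -0.58 and -0.45) and none higher, against 3.75% of all genes lower and 4.8% higher. Pair by pair, IFIT1 stood at 1.19, 1.28 and 1.46 times its vehicle partner in replicates 1 to 3 and at 0.754, 0.892 and 0.916 times in replicates 4 to 6. STAT2 was likewise below its partner in replicates 4, 5 and 6, at 0.811, 0.876 and 0.843 times. For other members replicate 4 alone lay well below its partner. HERC6 stood at 0.807, 1.05 and 1.07 times in replicates 4, 5 and 6, and DDX58 at 0.732, 1.2 and 0.961 times. In unsorted cells 22 of the 23 members fitted in both sets were negative in replicates 1 to 3 and 17 in replicates 4 to 6. ISG15 and IFI6 were called higher there in replicates 4 to 6 (0.36 and 0.21, adjusted p = 0.019 and 0.023), against 2.51% of all genes higher, while IFI6 stood at -0.41 in replicates 1 to 3. The difference between the sets was not tested, and the signs within each set were not counted over all genes.

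**Figure D5:**
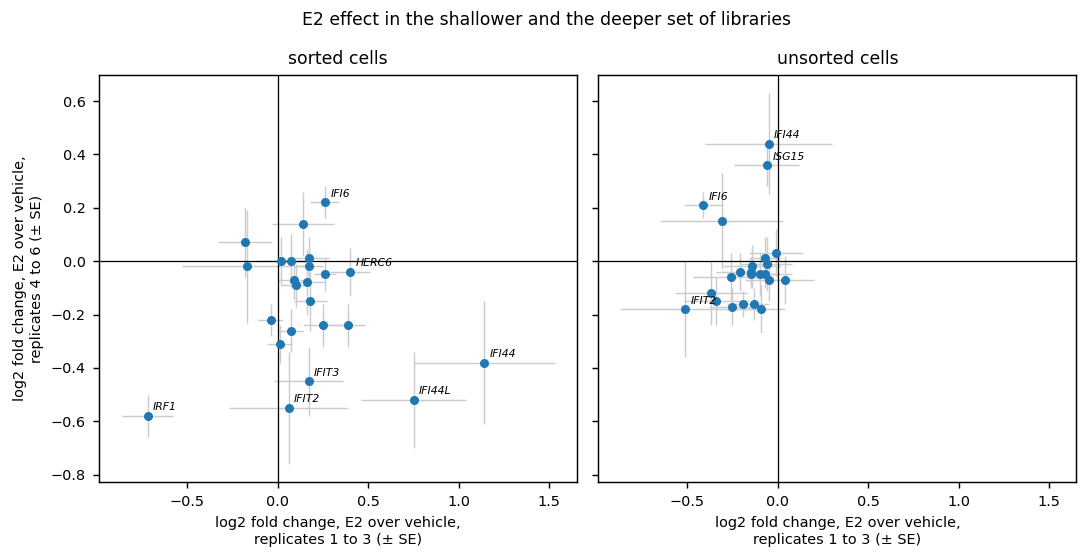
Log2 fold change of E2 over vehicle in replicates 1 to 3 on the horizontal axis and in replicates 4 to 6 on the vertical axis, each with its standard error, for the 24 members fitted in both sets in sorted cells and the 23 in unsorted cells. IRF1 in sorted cells is well below 0 on both axes at -0.72 and -0.58, while IFI44 and IFI44L lie to the right of 0 and below it.

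Whether the E2 effect differed between sorted and unsorted cells was tested as the interaction over all 24 libraries. No member passed edgeR's test among 25 tested, against 0.0264% of all 15134 genes, none had an unadjusted p under 0.05, and DESeq2 called 0. With the block there was again no call, against 0.463% of all genes, and IRF1 was the single member with an unadjusted p under 0.05. Its E2 effect in sorted minus that in unsorted cells was -0.42 ± 0.12 log2 units (adjusted p = 0.21), negative for 6 of 6 replicate numbers.

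Of the pathway genes tested, none passed edgeR's test for E2 in either cell population. At an unadjusted p under 0.05 there were 4 of 56 in sorted and 1 of 59 in unsorted cells. With the block 3 were higher and 4 lower in sorted cells, against 7.03% and 6.2% of all genes, and 1 was higher and 2 lower in unsorted cells, against 2.86% and 2.37%. TRIM25, a ubiquitin ligase that activates RIG-I and is also known as an estrogen-responsive finger protein, had 43.5, 81.5 and 86.0 CPM in sorted E2 and 29.6, 44.6 and 60.2 CPM in sorted vehicle libraries. Its log2 fold change was 0.76 ± 0.18 (edgeR adjusted p = 0.057), and 0.78 ± 0.06 (adjusted p = 3.2e-08) with the block. In unsorted cells it was 0.62 ± 0.15 (edgeR adjusted p = 0.17), and 0.64 ± 0.06 (adjusted p = 3.1e-07) with the block. DDX58, which encodes the sensor that TRIM25 acts on, had log2 fold changes of 0.02 and 0.02 with E2 in sorted and unsorted cells with the block. STAT3 in sorted cells had a log2 fold change of -0.35 ± 0.20 (edgeR adjusted p = 0.93), and -0.35 ± 0.04 (adjusted p = 5e-07) with the block, and was lower with E2 in 6 of 6 pairs. IFNAR2 was lower and TYK2 higher with the block in sorted cells (-0.34 ± 0.08 and 0.27 ± 0.05, adjusted p = 0.004 and 0.00063).

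Several members lie next to each other in the genome. In the RefSeq gene order of the assembly ARS-UI_Ramb_v3.0, used for order alone, 28 of the 31 members were found, DDX58 under the name RIGI. IFIT2, IFIT3, IFIT1 and IFIT5 follow each other, and so do MX2 and MX1, IFI44L and IFI44, and HERC5 and HERC6. PARP9 and PARP14 have 1 protein-coding gene between them. Neighbours did not always move together. In vehicle cells with the block the log2 fold change of HERC5 was -0.59 and that of HERC6 0.47, and those of IFIT1 and IFIT5 were 0.80 and -0.27.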

How the data were processed

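Per the labels' protocols, the 24 RNA-seq libraries were each prepared with a TruSeq kit from 500 ng of RNA. The deposited counts are whole numbers for 27054 features, and the authors counted with featureCounts 1.5.1, per the submitters' processing notes. Which aligner, build and strandedness were used is not given in the sources used here. Overlapping genes of opposite strand therefore cannot be separated, no coordinates are printed, and reads of similar neighbours such as the IFIT genes may be shared. The authors' 3 tables of edgeR results were not used. Members were matched by gene name, and 9994 features carry none. The members and gene lists were chosen with earlier results of these data known.

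The libraries of a comparison were fitted in edgeR 4.0.16 (R 4.3.3) with TMM, filterByExpr and the robust 2-sided quasi-likelihood F-test. A call is a Benjamini-Hochberg adjusted p below 0.05, taken over every gene tested. Standard errors are the log2 fold change over the square root of F. The interaction used all 24 libraries. Comparisons that use the same libraries, or libraries of the same replicate numbers, are not independent. The replicate block adds the replicate number as a factor. The pairing was checked in the counts: deviations from group means correlated at r = 0.291 to 0.884 between same-numbered libraries of different groups in all 24 pairs, and at 0.259 to 0.838 after centring within depth sets, so the numbers pair the libraries. No label says that equal numbers share an animal or culture. Alternatives were DESeq2 1.42.0, RLE size factors, other filters, a fit over all libraries, single depth sets, each library left out, and the libraries numbered 4 left out, which was chosen after seeing the data. Named are all members, the receptor, ligand and JAK-STAT genes, and of the other pathway genes up to 6 called genes a comparison with the smallest p, from which the text gives a selection. TRIM25 was added after its values were seen. Reads are not independent molecules, and the spread between libraries limits these comparisons. Counting error adds to it for members with few counts. IFI44, for example, had 8, 4 and 9 counts in sorted vehicle replicates 1 to 3. The values of 1 pathway gene are not reported here.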

Additional observations from a re-analysis of the deposited data

Results flagged for a closer look

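In 21 of the 100 combinations of a member and a group, 1 library lay further from its nearest neighbour than Dixon's 95% critical share of the group's range, against 4.87% of the combinations over all genes. Chance flags about 1 in 20 groups of independent, normally distributed values. CPM was not put on a log scale for this check. The 100 combinations are not independent, because members and groups moved together by replicate number. The library was replicate 4, the highest, in 19 of the 21. DHX58 had 110.7 CPM there in sorted E2, 114 CPM in sorted vehicle and 44.7 CPM in unsorted E2 cells. IRF9 had 124.1 CPM in sorted E2 and 123.5 CPM in sorted vehicle cells. MX2 had 169.5 CPM in sorted E2 and 211.7 CPM in sorted vehicle cells, IFI44 had 10.03 and 12.8 CPM, and IFI44L 19.1 and 30.7 CPM in the same groups. ISG15 had 157.5 CPM in sorted E2, 147.6 CPM in sorted vehicle, 38.0 CPM in unsorted E2 and 31.9 CPM in unsorted vehicle cells, so it stood apart in all 4 groups. IFIT1 (141.4 CPM), IFIT3 (21.1 CPM) and HERC6 (98.5 CPM) stood apart in sorted vehicle cells, and IFI6 (399.5 CPM) in unsorted E2 cells. The other library was replicate 1, the highest for HERC5, with 27.7 CPM in unsorted E2 and 30.9 CPM in unsorted vehicle cells. The sources of replicate 4 and of the others are not described in the labels, and the cause was not tested.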

How the results depend on the processing

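Of 2902 values of single members under the alternatives, 2775 kept their direction and side of the threshold, 35 lost a call, 91 gained one and 1 called value reversed, and 332 uncalled values changed sign. The reversed value was IFI6 under E2 in unsorted cells, at 0.21 in replicates 4 to 6 with the block and -0.03 in all replicates. RLE size factors changed no call of 121. In the vehicle sort comparison the replicate block gave 11 higher and 3 lower members against 7 and 0, replicates 4 to 6 gave 12 and 2, replicates 1 to 3 gave 2 lower, and the libraries numbered 4 left out with the block gave 3 lower. In the E2 sort comparison the count of lower members, 1 in all libraries, was 2 under DESeq2, the stricter filter and the block, 3 in replicates 4 to 6, 0 without the libraries numbered 4, and 3 without them with the block. For E2 in sorted cells, with 0 calls, the block gave 1 higher and 1 lower, replicates 1 to 3 gave 3 and 1, replicates 4 to 6 gave 4 lower, DESeq2 gave 1 lower, and the block without the libraries numbered 4 gave 1 and 1. For E2 in unsorted cells the block gave 1 lower and replicates 4 to 6 gave 2 higher. The cause of these changes was not tested, and the single depth sets hold fewer samples. The block changed no member's call other than those given above.

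Leaving out each library in turn gave 5 to 10 higher and 0 to 1 lower members in the vehicle sort comparison, 7 to 13 and 0 to 1 in the E2 sort comparison, and 0 for every E2 effect and the interaction. These fits had no replicate block. The lower call in vehicle cells was HERC5, without sorted vehicle replicate 1. Calls were gained in the vehicle comparison for IFIT1, MX1 and ISG15 without sorted vehicle replicate 6, for MX1 and ISG15 without unsorted vehicle replicate 4 and for ISG15 without sorted vehicle replicate 3. In the E2 sort comparison they were gained for IRF1 in 4 of 12 fits, ISG15 in 3, HERC6 and PARP9 in 2 each and RSAD2 in 1. Over all genes, E2 calls were 196 in sorted and 37 in unsorted cells without the block, 1896 and 790 with it, and 401 and 124 under DESeq2, and interaction calls were 4, 70 and 17. ISG20 and CXCL10, with group means under 1 CPM, are limited by depth in replicates 1 to 3.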
